A study of Mus musculus with 12 samples.

Results

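The genes described here are 32 components of the unfolded protein response and of protein folding in the endoplasmic reticulum (ER), measured by RNA-Seq in oligodendrocytes sorted from mouse brain. They were taken by gene symbol from the 55376 symbols of the deposited count table, as 5 stress sensors and their factors, 11 chaperones and cochaperones, 4 disulfide isomerases, 7 genes of ER-associated degradation, 3 KDEL receptors and 2 translocon subunits, and all 32 passed the filter on low counts that left 17716 genes for testing. There were 12 samples of C57BL/6 mice at postnatal day 40, 4 per genotype. WT mice were compared with Cnp-Cre Jab1fl/fl mice, where Cre under the oligodendrocyte promoter Cnp deletes the floxed Jab1 gene (Cops5, the catalytic subunit of the COP9 signalosome), and with Cnp-Cre Jab1fl/fl p21CIP1-/- mice, which by their labels also lack the cell cycle inhibitor p21CIP1 (Cdkn1a) and are called double mutants below. Each sample held the cells of 2 brains, sorted by FACS as single live cells that carried the oligodendrocyte surface lipid O1 and lacked the leukocyte marker CD45. Cnp-Cre is active from late oligodendrocyte precursors onward, the share of sorted cells that had lost Jab1 was not measured in these counts, and the WT samples were labelled wild-type with no Cre or floxed allele named.

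When unfolded proteins build up in the ER, 3 sensors in its membrane respond. Ern1 (IRE1) splices the mRNA of the transcription factor Xbp1, Atf6 is released by cleavage in the Golgi, and Eif2ak3 (PERK) phosphorylates the translation factor eIF2α, which favors translation of Atf4. The first pair of arms drive genes of chaperones and of ER-associated degradation, and the PERK arm leads through Atf4 to Ddit3 (CHOP). Oligodendrocytes pass large amounts of myelin membrane protein through the ER, and this response is known in disorders of myelin. Counts per gene measure the amount of an mRNA and show neither the splicing of Xbp1, nor the cleavage of Atf6, nor the phosphorylation of eIF2α.

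The promoters of the genes on which the results turn are shown because the factors of the response bind known motifs in them. For 26 of the 32 genes RefSeq (GRCm38.p6) gave a promoter, here from 250 bases before to 50 bases after the start of the transcript, and Atf6, Hyou1, Manf, Derl1, Kdelr2 and Sec61a1 had no entry in the table used. The ER stress response element (ERSE) was searched on both strands as CCAAT, 9 bases of any kind and CCACG. It was present in 9 of the 26 promoters, those of Hspa5, Hsp90b1, Dnajc3, Calr, Canx, Creld2, Pdia6, Syvn1 and Derl3 (34.6%), and in 37 of the 27025 genes of the table (0.137%). ERSE-II (ATTGG, 1 base of any kind and CCACG) was in the promoters of Dnajb11 and Herpud1, and in 0.0444% of all genes. The unfolded protein response element TGACGTGG was in the promoter of Kdelr3 alone among the 26, and in 0.714% of all genes. The cAMP response element TGACGTCA and the C/EBP-ATF element TGATGNAAT were in none of the 26, against 2.03% and 1.08% of all genes, and no match overlapped another in these promoters. The sequences below are the 250 bases before the start, 5′ to 3′ on the strand of the gene, with the motif in capitals. Hspa5 is at chr2:34771840-34772089 (plus strand), Hsp90b1 at chr10:86705445-86705694 (minus strand) with an ERSE in each orientation, Herpud1 at chr8:94386179-94386428 (plus strand) with an ERSE-II, Kdelr3 at chr15:79516158-79516407 (plus strand) with the unfolded protein response element on the other strand, and Sdf2l1 at chr16:17132384-17132633 (minus strand), where none of the 5 motifs was found.
Hspa5: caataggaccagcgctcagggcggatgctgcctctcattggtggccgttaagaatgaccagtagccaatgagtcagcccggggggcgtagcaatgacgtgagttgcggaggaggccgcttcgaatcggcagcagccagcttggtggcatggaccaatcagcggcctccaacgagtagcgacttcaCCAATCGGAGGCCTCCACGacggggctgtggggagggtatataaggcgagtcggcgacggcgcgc
Hsp90b1: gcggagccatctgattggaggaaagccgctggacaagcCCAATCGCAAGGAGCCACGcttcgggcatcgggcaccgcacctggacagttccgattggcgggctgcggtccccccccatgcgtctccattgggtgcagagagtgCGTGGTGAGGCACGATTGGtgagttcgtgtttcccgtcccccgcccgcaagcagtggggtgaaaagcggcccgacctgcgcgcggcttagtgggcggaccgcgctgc
Herpud1: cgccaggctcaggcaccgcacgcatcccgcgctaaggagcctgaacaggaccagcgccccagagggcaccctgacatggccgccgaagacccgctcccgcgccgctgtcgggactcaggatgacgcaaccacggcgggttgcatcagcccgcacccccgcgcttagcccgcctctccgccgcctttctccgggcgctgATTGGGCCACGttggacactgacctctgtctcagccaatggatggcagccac
Kdelr3: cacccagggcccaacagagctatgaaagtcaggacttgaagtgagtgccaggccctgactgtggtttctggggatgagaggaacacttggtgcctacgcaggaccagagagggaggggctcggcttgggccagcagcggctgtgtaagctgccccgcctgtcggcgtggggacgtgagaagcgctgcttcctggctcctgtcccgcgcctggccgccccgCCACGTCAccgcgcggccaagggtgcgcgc
Sdf2l1: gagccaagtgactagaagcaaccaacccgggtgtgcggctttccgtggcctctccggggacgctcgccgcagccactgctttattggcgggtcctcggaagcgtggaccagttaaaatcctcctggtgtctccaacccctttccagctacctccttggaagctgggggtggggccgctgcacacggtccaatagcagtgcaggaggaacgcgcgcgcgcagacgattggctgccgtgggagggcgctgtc

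Total counts per sample were between 61485556 and 153495112, so that a level of 1 CPM (counts scaled to the library size) stood for 68.1 to 155 counts after TMM scaling, and the spread between samples set the precision of most values. Cops5 was at 46.3 to 134 CPM in WT, 44.9 to 89.0 CPM in Cnp-Cre Jab1fl/fl and 44.2 to 90.4 CPM in double mutants, which overlapped (adjusted p = 0.349 and 0.424 against WT, edgeR). Cdkn1a was at 16.0 to 85.4 CPM in WT, 379 to 636 CPM in Cnp-Cre Jab1fl/fl and 64.7 to 103 CPM in double mutants, and counts per gene do not separate targeted exons from the others. By quantitative PCR on sorted O1+ cells, the paper reported reduced Cops5 in Cnp-Cre Jab1fl/fl and no detectable Cdkn1a in double mutants. Of 12 oligodendrocyte markers, 8 were lower in Cnp-Cre Jab1fl/fl than in WT (edgeR, adjusted p below 0.05), and none of the 12 was at 0 in any group. Their summed level was 46198 to 107763 CPM in WT, 9121 to 35615 CPM in Cnp-Cre Jab1fl/fl and 17011 to 53709 CPM in double mutants. The summed level of 18 microglia markers, all of them present in each group, was 111 to 331 CPM in WT, 1307 to 3353 CPM in Cnp-Cre Jab1fl/fl and 474 to 2540 CPM in double-mutant replicates 1, 2 and 5, and 23137 CPM in double-mutant replicate 3. The summed level of 10 astrocyte markers was 5539 to 13353 CPM in WT. It was 3529 to 8647 CPM in Cnp-Cre Jab1fl/fl and 4025 to 11120 CPM in double mutants. None of the astrocyte markers was called in any comparison (edgeR, adjusted p below 0.05). The part of such cells in the levels below was not tested. In bulk samples such as these, fewer cells of a type and less RNA per cell cannot be told apart.

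In the sorted WT samples the folding machinery was among the more abundant mRNAs. Divided by the length of the merged exons, Pdia3, a disulfide isomerase of glycoproteins, was the most abundant of the 32 genes at 183 ± 24.3 CPM per kb (SD, n = 4), above 98.4% of the 17596 genes ranked. It was followed by Hspa5 (BiP), the main ER chaperone of the Hsp70 family, at 138 CPM per kb, its Hsp90 counterpart Hsp90b1 (GRP94) at 127 CPM per kb, and the isomerases Pdia6 at 115 and P4hb at 109 CPM per kb. In all, 25 of the 32 genes were above the median gene and 13 were above at least 91.8% of all genes. Xbp1 mRNA was at 51.6 CPM per kb, above 92.3% of genes, whereas the sensors Atf6 (3.70 CPM per kb), Eif2ak3 (3.36 CPM per kb) and Ern1 (0.946 CPM per kb) were below the median gene. Hyou1, Derl3, Kdelr3 and Ern1 came last in the order. Each of the 31 pairs of neighbors in this order had overlapping sample ranges, so that only steps of several ranks exceeded the spread.

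**Figure D1:**
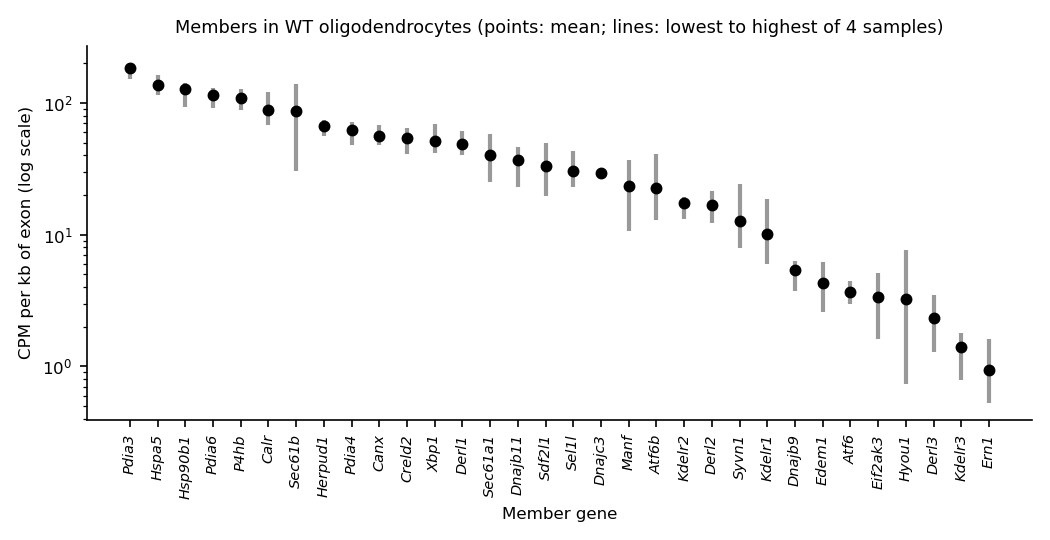
Level of the 32 genes in the sorted WT samples, as CPM per kb of merged exons on a log scale, with the mean as a point and a line from the lowest to the highest of 4 samples. The isomerases and the chaperones Hspa5 and Hsp90b1 lead, from 183 CPM per kb for Pdia3, and Kdelr3 (1.39 CPM per kb) and Ern1 (0.946 CPM per kb) come last.

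As compared with WT, 0 of the 32 genes was higher and 0 was lower in Cnp-Cre Jab1fl/fl oligodendrocytes (edgeR, adjusted p below 0.05), where 5.19% of all genes tested were higher and 2.46% lower. At an unadjusted p below 0.05, 4 genes were higher (Hsp90b1, Sdf2l1, Kdelr2 and Kdelr3) and 0 lower, against 13.2% and 9.3% of all genes. DESeq2 called Kdelr3 alone (15.2% of all genes in either direction), and limma-voom with sample quality weights called 0 of the 32 (10.8%). The levels of both genotypes did not overlap for 3 genes, Hsp90b1, Dnajb9 and Kdelr2, all higher, where 9.88% of all genes were higher without overlap and 7.26% lower. These shares are close to or below the background. The median log2 fold change of the 32 genes was 0.13, with 20 above 0, and that of all genes was 0.02.

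In double mutants, Kdelr3, which encodes one of the receptors that return escaped chaperones from the Golgi to the ER and was the least abundant of them in WT, was higher than in WT, and it was the only one of the 32 genes called by edgeR in any of the comparisons made. Against WT, 0.175% of all genes were higher and 0.0169% lower. At an unadjusted p below 0.05, 5 genes were higher (Sdf2l1, Derl3, Kdelr2, Kdelr3 and Sec61b) and 0 lower, against 7.82% and 4.57% of all genes. DESeq2 called Sdf2l1, Kdelr2 and Kdelr3 (4.87% of all genes), and limma-voom called Kdelr3 (0.265%). Hspa5, Hsp90b1, Sdf2l1, P4hb, Kdelr2 and Kdelr3 were higher in each double-mutant sample than in each WT sample, 6 of 32 genes (18.8%), against 4.52% of all genes higher and 3.58% lower without overlap. The median log2 fold change was 0.41, with 25 genes above 0, and that of all genes was 0.00. Without double-mutant replicate 3 the median of the 32 genes was 0.14.

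Between double mutants and Cnp-Cre Jab1fl/fl, 0 of the 32 genes was called in either direction by edgeR, where 0.0% of all genes were higher and 0.0% lower. None of the 32 had an unadjusted p below 0.05 (1.75% of all genes higher and 3.25% lower) or groups that did not overlap (1.23% and 1.99%), and none was called by DESeq2 (0.491%) or limma-voom (0.00564%). The median log2 fold change was 0.34, with 27 genes above 0, against 0.02 for all genes, and it was 0.19 without double-mutant replicate 3. The comparisons share samples, so that their medians are not independent of each other.

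The samples of one genotype differed in the whole group of genes. For each gene, log2(CPM + 1) in a sample was set against its mean over WT. The median difference over the 32 genes was 0.92 in double-mutant replicate 3 and 0.21, 0.42 and 0.22 in double-mutant replicates 1, 2 and 5. In Cnp-Cre Jab1fl/fl replicates 1 to 4 it was 0.12, 0.43, -0.13 and 0.13. Double-mutant replicate 3 thus stood apart, and it had the highest level of all 12 samples for 16 of the 32 genes, Hspa5, Calr, Pdia3, Pdia4, Pdia6 and P4hb among them, where 10.3% of all genes had their highest level in that sample. It was also the sample with the highest microglia markers, whose part in these levels was not tested. WT replicate 3 had the highest level of 5 genes (Atf6b, Hyou1, Sel1l, Syvn1 and Kdelr1) and the lowest of 6 (Hsp90b1, Dnajb11, Sdf2l1, Manf, Pdia6 and Sec61b), where 15.1% of all genes were highest and 13.1% lowest in that sample, so that these counts were near the background. The median SD of log2(CPM + 1) between samples of one genotype was 0.34 in WT, 0.46 in Cnp-Cre Jab1fl/fl and 0.50 in double mutants, against 0.50, 0.64 and 0.66 over all genes tested.

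Kdelr3 lies on chromosome 15 from 79516411 to 79527739 (GRCm38, plus strand, 5 merged exons), and its exons share 4 bases with Ddx17 on the other strand. In WT replicates 1, 3, 5 and 6 it was at 1.11, 2.40, 1.80 and 2.55 CPM. In Cnp-Cre Jab1fl/fl replicates 1 to 4 it was at 11.3, 23.1, 1.92 and 10.8 CPM, and in double-mutant replicates 1, 2, 3 and 5 at 18.2, 15.1, 23.7 and 17.7 CPM. All double mutants were thus above all WT samples, whereas Cnp-Cre Jab1fl/fl replicate 3 was at the WT level. Fitted log2 fold changes are given with their standard error (SE). That of Kdelr3 against WT was 3.24 in double mutants (SE 0.48, edgeR adjusted p = 0.0404) and 2.59 in Cnp-Cre Jab1fl/fl (SE 0.75, edgeR adjusted p = 0.0604), and between the mutants it was 0.66 (SE 0.62, edgeR adjusted p = 0.997). The call in double mutants was lost when any single one of the 8 samples was left out, apart from double-mutant replicate 1 (adjusted p of 0.0259 to 0.148, log2 fold change of 3.04 to 3.41), and in Cnp-Cre Jab1fl/fl the gene was called without replicate 3 (edgeR adjusted p = 0.0281). Over all genes, 31 were called higher in double mutants with all 8 samples and 202 without double-mutant replicate 1. Without any other single sample, 1 to 8 of all genes were called higher. Ddx17 was at 276 ± 72.2 CPM in WT and 256 ± 71.9 CPM in double mutants (SD, n = 4), with overlapping levels.

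Kdelr3 made up a larger part of the KDEL receptor mRNA in each double mutant than in each WT sample. Per length of exon, it was 2.94%, 4.54%, 5.41% and 6.63% of the sum of Kdelr1, Kdelr2 and Kdelr3 in WT, and 27.3%, 21.9%, 21.9% and 16.4% in double mutants. In Cnp-Cre Jab1fl/fl it was 13.5%, 31.2%, 4.23% and 18.5%, the third again within the WT range. Kdelr2, on average the most abundant receptor of the family, was at 31.6 ± 5.24 CPM in WT, 49.4 ± 11.4 CPM in Cnp-Cre Jab1fl/fl and 68.8 ± 25.3 CPM in double mutants (SD, n = 4), and both mutants lay above WT in every sample. Its log2 fold change was 0.65 (SE 0.29, adjusted p = 0.207) and 1.11 (SE 0.33, adjusted p = 0.205) by edgeR, which did not pass. Kdelr1 had log2 fold changes of 0.12 and 0.19.

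Markers of other cells were set beside Kdelr3 across the samples. The summed level of 10 endothelial markers was 351 to 792 CPM in WT, 829 to 5802 CPM in Cnp-Cre Jab1fl/fl and 680 to 5392 CPM in double mutants, and 7 of them were called higher in Cnp-Cre Jab1fl/fl. That of 9 fibroblast and mural markers, a list added after the values had been seen, was 163 to 375, 322 to 1116 and 127 to 813 CPM in the same order, and no marker of either list was at 0 throughout a group. Double-mutant replicate 1, where Kdelr3 was at 18.2 CPM, had 680 CPM of the endothelial and 127 CPM of the fibroblast and mural markers, within or below the range of WT, and 474 CPM of the microglia markers, above it. The summed level of 10 choroid plexus markers was 305 to 4142 CPM in WT, 6556 to 24742 CPM in Cnp-Cre Jab1fl/fl and 5472 to 24238 CPM in double mutants, so that every mutant sample, double-mutant replicate 1 (5472 CPM) included, was above WT in this sum. Most of the sum was Ttr, at 270 to 3928 CPM in WT and 5291 CPM in double-mutant replicate 1. In that replicate Slc4a5 and Prlr were also above all WT samples. Folr1, Kl, Aqp1, Otx2, Kcnj13 and F5 were within the WT range there, and Clic6 was below it. Cnp-Cre Jab1fl/fl replicate 3, where Kdelr3 was at 1.92 CPM, had 2885 CPM of the endothelial and 24742 CPM of the choroid plexus markers. Replicate 2 of that genotype had its highest Kdelr3 level, 23.1 CPM. It had the lowest endothelial (829 CPM), fibroblast and mural (322 CPM), microglia (1307 CPM) and choroid plexus (6556 CPM) sums of the genotype. The sum of 10 neuron markers was highest there, at 757 CPM. The part of other cells in the level of Kdelr3 was not tested.

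**Figure D2:**
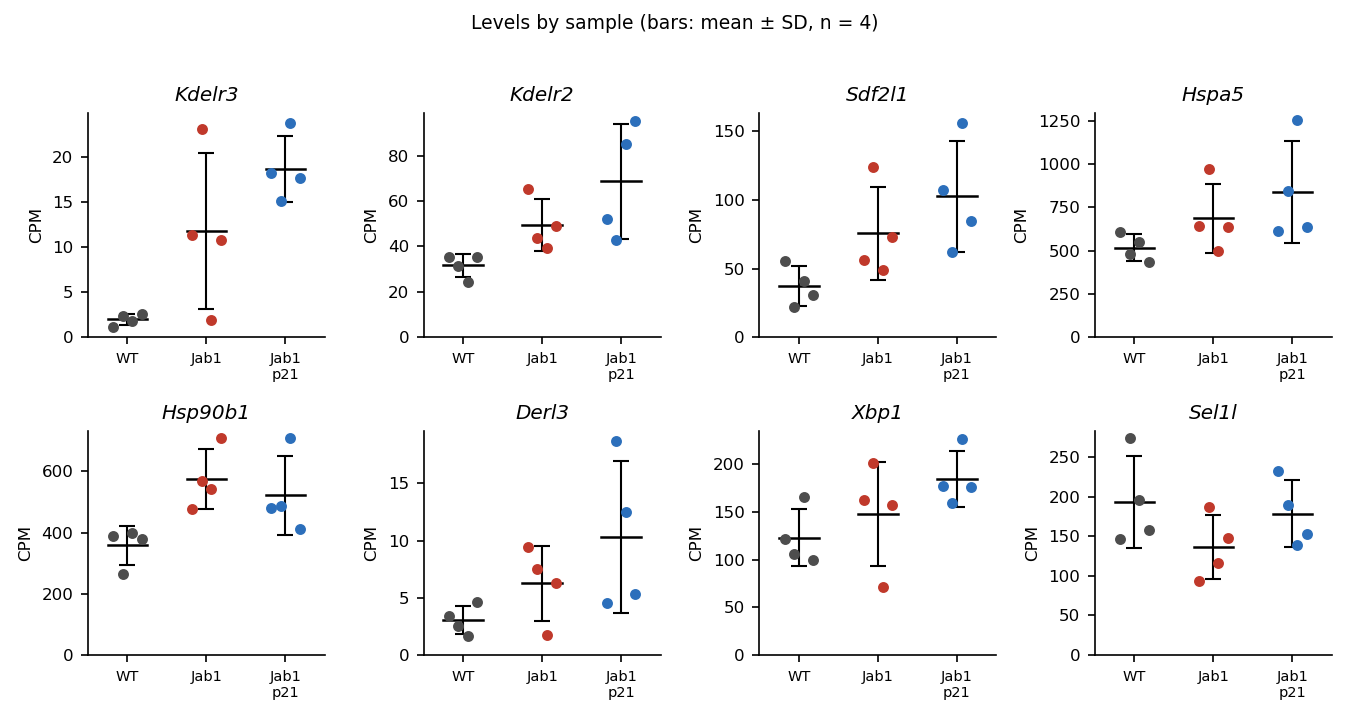
Level in CPM of 8 of the genes in each sample of WT, Cnp-Cre Jab1fl/fl (Jab1) and Cnp-Cre Jab1fl/fl p21CIP1-/- (Jab1 p21) oligodendrocytes, with points for samples and bars for the mean and SD of 4 samples. All 4 double mutants are above all WT samples for Kdelr3 (15.1 to 23.7 against 1.11 to 2.55 CPM), Kdelr2, Sdf2l1, Hspa5 and Hsp90b1, and the genotypes overlap for Derl3, Xbp1 and Sel1l.

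The sensors showed no gene past the test in any comparison. Ern1, the kinase and nuclease that splices Xbp1, was at 5.82, 13.2, 7.53 and 4.34 CPM in WT, 6.54, 0.757, 9.59 and 4.14 CPM in Cnp-Cre Jab1fl/fl and 8.09, 14.0, 1.51 and 2.67 CPM in double mutants. The kinase Eif2ak3 was at 9.33, 23.1, 24.7 and 7.87 CPM in WT, 16.0, 17.5, 3.11 and 11.4 CPM in Cnp-Cre Jab1fl/fl and 23.3, 28.6, 13.7 and 8.76 CPM in double mutants. Both genes varied more than 3-fold within WT, and all groups overlapped, with 2 standard errors on each side of the log2 fold change running from -2.05 to 0.94 for Ern1 and from -1.62 to 0.75 for Eif2ak3 in Cnp-Cre Jab1fl/fl against WT. The membrane-bound factor Atf6 was at 24.7, 32.2, 29.0 and 21.4 CPM in WT, 17.1, 31.8, 21.7 and 52.8 CPM in Cnp-Cre Jab1fl/fl and 34.3, 26.7, 19.0 and 19.5 CPM in double mutants, with a log2 fold change of 0.20 and -0.12 against WT and -0.31 between the mutants. Its paralog Atf6b was at 44.1, 105, 52.4 and 33.0 CPM in WT, 25.8, 56.4, 27.7 and 16.6 CPM in Cnp-Cre Jab1fl/fl and 46.2, 65.9, 41.5 and 39.7 CPM in double mutants. WT replicate 3 was the highest and the other WT samples overlapped with the mutants (log2 fold change -0.89, SE 0.45, edgeR adjusted p = 0.277, in Cnp-Cre Jab1fl/fl). Xbp1, the factor that IRE1 activates, was at 122, 106, 166 and 99.1 CPM in WT, 163, 201, 71.1 and 157 CPM in Cnp-Cre Jab1fl/fl and 177, 159, 227 and 177 CPM in double mutants. Of the double mutants 3 were above every WT sample (log2 fold change 0.57, SE 0.28, edgeR adjusted p = 0.438), and the log2 fold change in Cnp-Cre Jab1fl/fl was 0.27 (SE 0.34).

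Among the 11 chaperones and cochaperones, 8 had a log2 fold change above 0 in Cnp-Cre Jab1fl/fl and 10 in double mutants against WT, with medians of 0.35 and 0.49, and 0 were called. Sdf2l1, a partner of the ER DnaJ proteins, had the smallest p of the group. It was at 55.4, 21.7, 40.6 and 30.4 CPM in WT, 56.2, 124, 49.1 and 72.9 CPM in Cnp-Cre Jab1fl/fl and 107, 61.7, 156 and 85.0 CPM in double mutants. All double mutants were above WT (log2 fold change 1.46, SE 0.39, edgeR adjusted p = 0.168), and 3 of the 4 Cnp-Cre Jab1fl/fl samples were (1.03, SE 0.39, edgeR adjusted p = 0.137). Hspa5 was at 609, 479, 548 and 435 CPM in WT, 640, 971, 500 and 635 CPM in Cnp-Cre Jab1fl/fl and 616, 842, 1253 and 637 CPM in double mutants. The double mutants lay just above WT, led by replicate 3, and the log2 fold change was 0.68 (SE 0.32, edgeR adjusted p = 0.429) in them and 0.41 (SE 0.30, edgeR adjusted p = 0.474) in Cnp-Cre Jab1fl/fl. Hsp90b1, part of whose exons overlaps 1810014B01Rik on the other strand, was at 390, 265, 398 and 380 CPM in WT, 475, 570, 542 and 709 CPM in Cnp-Cre Jab1fl/fl and 482, 487, 708 and 413 CPM in double mutants. Both mutants were above WT in every sample, although the adjusted p was 0.175 in Cnp-Cre Jab1fl/fl (log2 fold change 0.68, SE 0.28) and 0.501 in double mutants (0.53, SE 0.30) by edgeR.

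The other chaperones had smaller or more variable values. Dnajb9 (ERdj4), a cochaperone of BiP, was at 13.2 ± 2.83 CPM in WT, 22.3 ± 4.40 CPM in Cnp-Cre Jab1fl/fl and 21.3 ± 7.86 CPM in double mutants (SD, n = 4), and only Cnp-Cre Jab1fl/fl was above WT in all samples. The secreted ER stress protein Manf had log2 fold changes of 0.71 and 0.78 against WT in the same order, the lectin chaperone Calr 0.35 and 0.49, the cochaperone Dnajc3 0.24 and 0.37, Creld2 0.34 and 0.27, and Dnajb11 -0.10 and 0.22. Hyou1, a large chaperone related to Hsp70, ranged from 3.5 to 36.6 CPM within WT and gave -0.74 and -0.17. Canx, the membrane-bound lectin partner of Calr, had the second smallest p for a higher level in double mutants than in Cnp-Cre Jab1fl/fl. It was at 204, 294, 268 and 205 CPM in WT, 146, 241, 156 and 201 CPM in Cnp-Cre Jab1fl/fl and 203, 334, 315 and 197 CPM in double mutants, which overlapped throughout (log2 fold change 0.50, SE 0.31, edgeR adjusted p = 0.996, between the mutants).

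The 4 disulfide isomerases, which form and rearrange disulfide bonds in new proteins, had log2 fold changes of 0.44 to 0.61 in double mutants and of -0.02 to 0.35 in Cnp-Cre Jab1fl/fl against WT, and 0 were called. Their summed level was 1017, 1455, 2831 and 1737 CPM in double-mutant replicates 1, 2, 3 and 5, and 1123 to 1377 CPM in WT, so that double-mutant replicate 1 was below WT and replicate 3 far above. P4hb was at 311 ± 55.4 CPM in WT, 312 ± 174 CPM in Cnp-Cre Jab1fl/fl and 480 ± 119 CPM in double mutants (SD, n = 4), where it was above WT in every sample (log2 fold change 0.61, SE 0.30, edgeR adjusted p = 0.435). Pdia3 reached 1303 CPM in double-mutant replicate 3 and was at 340 to 688 CPM in the other double mutants.

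In ER-associated degradation, where misfolded proteins are taken from the ER to the proteasome, the values of Cnp-Cre Jab1fl/fl against WT were on both sides of 0. Sel1l, the adaptor of the ubiquitin ligase Syvn1 (HRD1), was at 146, 274, 195 and 158 CPM in WT, 93.4, 186, 116 and 147 CPM in Cnp-Cre Jab1fl/fl and 233, 190, 139 and 152 CPM in double mutants. Derl2, a membrane component of the exit channel complex, was at 92.1, 53.0, 64.7 and 81.6 CPM in WT, 41.1, 65.9, 70.7 and 25.7 CPM in Cnp-Cre Jab1fl/fl and 44.5, 42.2, 76.7 and 38.7 CPM in double mutants. All groups overlapped, with log2 fold changes against WT of -0.51 (SE 0.32) and -0.13 (SE 0.31) for Sel1l, and of -0.52 (SE 0.36) and -0.54 (SE 0.32) for Derl2. Syvn1 (-0.51) and Derl1 (-0.45) also had values below 0 in Cnp-Cre Jab1fl/fl, and Edem1 (0.00) and Herpud1 (0.12) were near 0. The paralog Derl3 was at 3.06 ± 1.24 CPM in WT, 6.26 ± 3.25 CPM in Cnp-Cre Jab1fl/fl and 10.3 ± 6.66 CPM in double mutants (SD, n = 4), with a log2 fold change of 1.74 in the last (SE 0.64, edgeR adjusted p = 0.298). Derl3 is abundant in plasma cells, and the summed level of 7 plasma and B cell markers was 1.14 to 6.41 CPM in WT, 22.3 to 41.5 CPM in Cnp-Cre Jab1fl/fl and 6.53 to 179 CPM in double mutants. Most of the sum in the mutants was Ighm, at 13.8 to 37.1 CPM in Cnp-Cre Jab1fl/fl and 6.53 to 145 CPM in double mutants. Cd79b and Pou2af1 were at 0 in all WT samples. The plasma cell genes Jchain and Mzb1 were at 0 in all Cnp-Cre Jab1fl/fl samples and at most 0.0238 CPM in double mutants, against 0.575 and 0.524 CPM in WT replicate 3.

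The translocon carries new proteins into the ER. Its channel subunit Sec61a1 was at 91.8, 186, 159 and 79.1 CPM in WT, 97.3, 140, 63.6 and 69.8 CPM in Cnp-Cre Jab1fl/fl and 134, 179, 193 and 111 CPM in double mutants. It had the smallest p of the 32 genes between the mutants (log2 fold change 0.74, SE 0.34, unadjusted p = 0.0532, adjusted p = 0.968, edgeR), and the levels overlapped. Sec61b, its small subunit, was at 49.4 ± 25.4 CPM in WT, 84.2 ± 19.1 CPM in Cnp-Cre Jab1fl/fl and 99.7 ± 32 CPM in double mutants (SD, n = 4), with log2 fold changes against WT of 0.77 (SE 0.41, edgeR adjusted p = 0.300) and 1.0 (SE 0.45, edgeR adjusted p = 0.392).

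**Figure D3:**
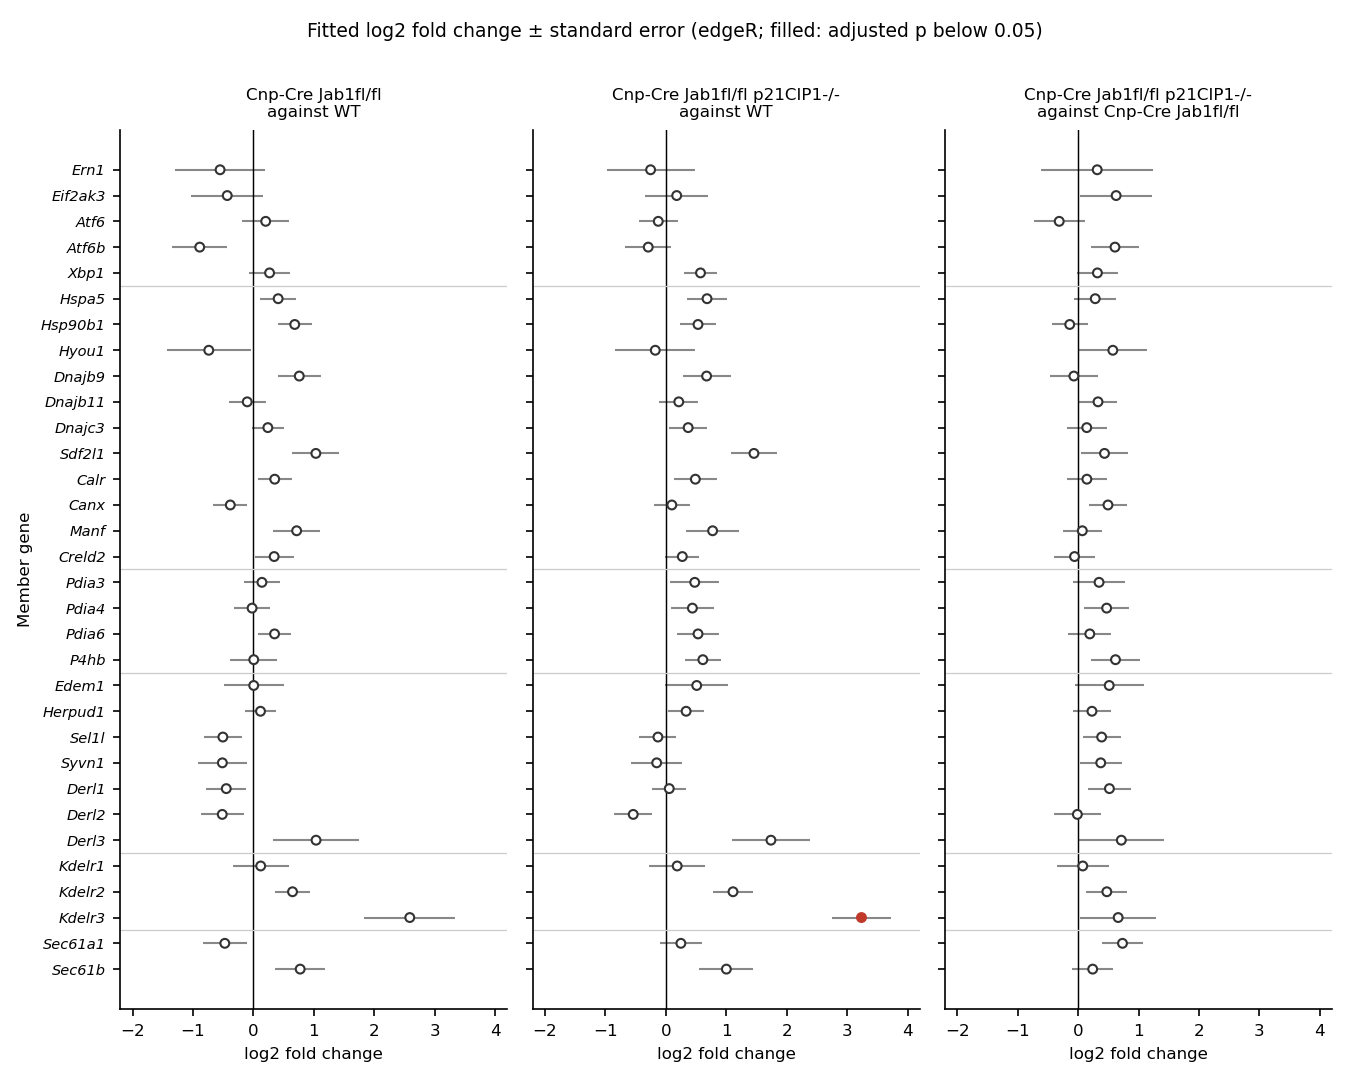
Fitted log2 fold change of the 32 genes with its standard error (edgeR) in the comparisons of Cnp-Cre Jab1fl/fl with WT, double mutants with WT and double mutants with Cnp-Cre Jab1fl/fl, where a filled point marks an adjusted p below 0.05. Kdelr3 in double mutants against WT (3.24) is the one filled point, and most other points lie within 1 of 0.

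Fold changes were also set beside the promoter motifs, with no test. The 9 genes with an ERSE had a median log2 fold change of 0.35 in Cnp-Cre Jab1fl/fl, 0.49 in double mutants against WT and 0.19 between the mutants. The 17 genes of the promoter table without an ERSE had medians of 0.00, 0.44 and 0.35. Kdelr3 and Sdf2l1 were among them, and ranked 1 and 3 among the 32 genes by fold change against WT in both mutants. Derl3, which ranked between them in both, had an ERSE, and Kdelr3 had the unfolded protein response element. Outside the 32 genes, 28 others had an ERSE, of which 11 were tested, with medians of -0.19, -0.15 and -0.08 and 0 called in any comparison.

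Some genes downstream of the PERK arm, which are not among the 32 genes, were higher in the mutants. Of a list of 20 ER stress response partners, 17 were tested and 4 were called higher in Cnp-Cre Jab1fl/fl than in WT (Trib3, Ppp1r15a, Ddit3 and Chac1), 2 in double mutants (Trib3 and Chac1) and 0 between the mutants, and 0 were lower (edgeR), where 5.19%, 0.175% and 0.0% of all genes were higher. The median over the 17 genes was 0.08, 0.50 and 0.34 in these comparisons. Ddit3, the transcription factor CHOP, was at 42.1, 26.4, 57.7 and 57.1 CPM in WT, 91.1, 320, 128 and 359 CPM in Cnp-Cre Jab1fl/fl and 535, 303, 148 and 149 CPM in double mutants. Every mutant sample was above WT, with a log2 fold change of 2.30 (SE 0.47, edgeR adjusted p = 0.0158) in Cnp-Cre Jab1fl/fl and 2.61 (SE 0.48, edgeR adjusted p = 0.0736) in double mutants. Ppp1r15a (GADD34), which directs the dephosphorylation of eIF2α, was at 27.4 ± 6.93 CPM in WT, 143 ± 73.7 CPM in Cnp-Cre Jab1fl/fl and 136 ± 101 CPM in double mutants (SD, n = 4), with log2 fold changes of 2.39 (edgeR adjusted p = 0.00751) and 2.30 (edgeR adjusted p = 0.0886). Trib3, a pseudokinase induced by CHOP and ATF4, had 0 counts in all WT samples, 3.13 to 40.5 CPM in Cnp-Cre Jab1fl/fl and 20.7 to 38.2 CPM in double mutants. On average it was at least 649.9-fold and 975-fold higher than a floor of 3 counts per WT library (adjusted p = 0.00227 and 0.00429, edgeR). Chac1, a glutathione-degrading enzyme downstream of ATF4, was at 0, 0, 0 and 0.108 CPM in WT, 6.35, 11.8, 0.588 and 24.2 CPM in Cnp-Cre Jab1fl/fl and 29.1, 20.7, 17.7 and 17.4 CPM in double mutants (adjusted p = 0.0173 and 0.0404, edgeR). Atf4 itself was at 93.0 ± 27.7 CPM in WT, 203 ± 68.4 CPM in Cnp-Cre Jab1fl/fl and 154 ± 63.4 CPM in double mutants (SD, n = 4), and its log2 fold changes of 1.13 (edgeR adjusted p = 0.0672) and 0.72 (edgeR adjusted p = 0.461) did not pass. These genes are also driven by amino acid shortage and other stresses through kinases other than PERK. Ddit3, Ppp1r15a, Trib3 and Chac1 were above WT in every mutant sample. So were the summed levels of the microglia, choroid plexus, and plasma and B cell markers, the last by 6.53 against 6.41 CPM at the closest. The part of other cells in these levels was not tested.

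**Figure D4:**
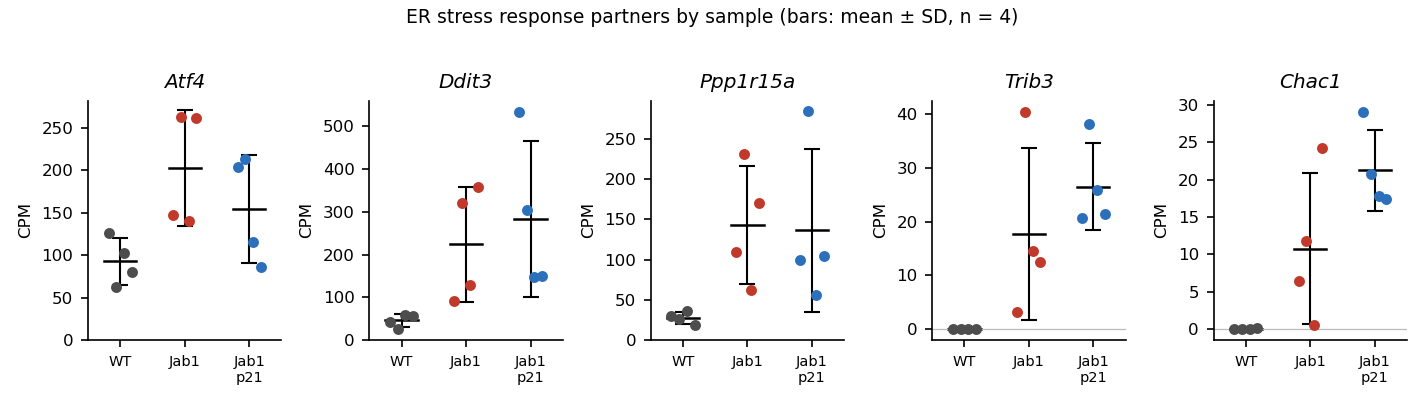
Level in CPM of 5 partners of the ER stress response in each sample of WT, Cnp-Cre Jab1fl/fl (Jab1) and Cnp-Cre Jab1fl/fl p21CIP1-/- (Jab1 p21) oligodendrocytes, with bars for the mean and SD of 4 samples. Every mutant sample is above every WT sample for Ddit3, Ppp1r15a, Trib3 and Chac1, and double mutants overlap with WT for Atf4.

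The other ER lists had few or no called genes. Of 25 other folding enzymes and chaperones, 24 were tested and 0 were called in any comparison, with medians of -0.04, 0.19 and 0.36 in Cnp-Cre Jab1fl/fl against WT, double mutants against WT and double mutants against Cnp-Cre Jab1fl/fl. Of 24 other genes of ER-associated degradation, 1 was called, Dnajb12, which encodes a cochaperone of the ER membrane and was lower in Cnp-Cre Jab1fl/fl than in WT. It was at 60.9, 43.9, 89.8 and 41.0 CPM in WT, 25.1, 30.2, 10.6 and 10.7 CPM in Cnp-Cre Jab1fl/fl and 65.9, 42.3, 32.2 and 19.0 CPM in double mutants. All Cnp-Cre Jab1fl/fl samples were below WT (log2 fold change -1.62, SE 0.43, edgeR adjusted p = 0.0445), and double mutants overlapped with both. The median of that list was -0.21, -0.05 and 0.34. Of 27 other genes of the translocon, signal peptidase and oligosaccharyltransferase, 0 were called, and the medians were -0.16, 0.22 and 0.38, with 26 of 27 above 0 in double mutants against Cnp-Cre Jab1fl/fl.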

How the data were processed

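RNA-Seq of O1+ CD45- oligodendrocytes from 12 samples, 4 per genotype and 2 brains per sample, was taken from 1 deposited table. Per the labels and the paper's methods, the authors made libraries with the SMART-Seq v4 kit from low-input RNA, trimmed paired-end reads (Trimmomatic 0.32), mapped them to GRCm38 (STAR 2.5.3a) and assigned them to a GENCODE basic annotation (featureCounts). The deposited values are these raw counts, not normalized, for 55376 symbols. Whether counting used the strand is not given in the sources used here, so that genes with overlapping exons on either strand (11 of the 32) are less certain. Genotypes and replicate numbers came from the labels of the samples, and 0 columns were left out.

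CPM were computed with TMM factors over the 12 samples, and 17716 genes reached 1 CPM in 4 or more samples. They were tested by quasi-likelihood in edgeR 4.0.16 (R 4.3.3) within the 8 samples compared, with Benjamini-Hochberg adjustment over all of them at a threshold of 0.05. Alternatives were DESeq2 1.42.0 (the tool of the study), limma-voom with sample quality weights (limma 3.58.1), scaling by the upper quartile, no filter on low counts, a stricter filter (mean CPM of 10 or more), a single fit of the 12 samples, a replicate block and each sample left out in turn. On simulated counts for Cnp-Cre Jab1fl/fl against WT, with 200 of 17716 genes changed by 3 on the log2 scale, edgeR recovered 76.5% with 5% false calls, DESeq2 84% with 24% and limma-voom 66.5% with 2.2%. Both simulated genotypes had the spread estimated from the WT samples, and smaller changes were not simulated. Positions, exon lengths and overlaps were from GENCODE M21 basic, in which 54510 symbols and all 32 genes were found by name, and promoters were from RefSeq. A fold against a group with 0 counts was computed against a floor of 3 counts per library, which covers counting error only, since the reads carry no molecular identifiers.

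The 32 genes and the gene lists were chosen with earlier results of these data known. All 32 were named, by role. Values in every sample are given for genes called in any comparison, for Hspa5, Xbp1, Ern1, Atf6 and Eif2ak3 and for the 2 genes with the smallest p in each direction of each comparison, and from each related list the called genes, at most 3 per direction and comparison, with Ddit3 and Atf4 in any case.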

Additional observations from a re-analysis of the deposited data

Results flagged for a closer look

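In 2 of 96 groups of 4 samples (32 genes in 3 genotypes), 1 sample was far from the other 3 by Dixon's ratio of its gap to the range above its 95% critical value, where chance at 1 in 20 gives 4.8. Hsp90b1 was lowest in WT replicate 3, at 265 CPM (ratio 0.882). Herpud1 was highest in double-mutant replicate 3, at 254 CPM (ratio 0.84), the sample with the highest level of 16 of the 32 genes.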

How the results depend on the processing

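The number of the 32 genes called higher in Cnp-Cre Jab1fl/fl than in WT was 0, and it was 1, Kdelr3 each time, with DESeq2, with a mean of at least 10 CPM, with all 12 samples in 1 fit and without Cnp-Cre Jab1fl/fl replicate 3, so that it was 0 to 1 when a sample was left out. In double mutants against WT it was 1, and 3 with DESeq2, 0 with no filter and 0 to 1 when a sample was left out. Over all genes, 31 were higher in double mutants than in WT, 20 with no filter, and 2 or 3 without any single WT sample. Without double-mutant replicates 1, 2, 3 and 5 in turn, 202, 1, 7 and 8 of all genes were higher. In Cnp-Cre Jab1fl/fl against WT, 504 to 1196 of all genes were higher when a sample was left out. Kdelr3 passed in 6 of 15 alternatives for double mutants against WT (log2 fold change 3.04 to 3.41, adjusted p of 2.47e-10 to 0.275) and in 4 of 15 for Cnp-Cre Jab1fl/fl (2.02 to 2.94, adjusted p of 0.00438 to 0.348). Between the mutants 0 were called under every alternative run. With a mean of at least 10 CPM, 30 of the 32 genes were tested. The sign of a fold change that was not called differed from the reported one in 33, 27 and 31 of 478 values, in 10, 12 and 14 genes, for Cnp-Cre Jab1fl/fl against WT, double mutants against WT and double mutants against Cnp-Cre Jab1fl/fl. In the same order, the median over the 32 genes without 1 sample was 0.06 to 0.25, 0.14 to 0.47 and 0.19 to 0.45. Limma-voom moved the median of all genes from 0.02 to -0.10 in Cnp-Cre Jab1fl/fl against WT. Over all genes, 919 were higher by edgeR and 1687 by DESeq2 for Cnp-Cre Jab1fl/fl against WT, with 31 and 663 for double mutants. The cause of these differences was not tested.

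The labels do not say what a shared replicate number means. Deviations from the group mean correlated at -0.188 to 0.083 in the 8 pairs of samples with a shared number, and 1 of 16 matches was best with its own number, so that the numbers were not taken as pairs. With a replicate block in a fit of all 12 samples, 0 of the 32 genes were called higher than WT in either mutant genotype, and over all genes 76 were higher in Cnp-Cre Jab1fl/fl and 8 in double mutants.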
